A study of Ipomoea batatas with 28 samples.

Results

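A set of 100 IDs was examined that stood high in the thinnest and again in the thickest roots of sweet potato (Ipomoea batatas), and low in the roots between. Each ID is 1 row of a table of transcript abundance with 99697 rows, of which 75757 held 1 TPM or more in at least 4 of 28 libraries. TPM (transcripts scaled to a fixed library total) is a length-scaled share of a library, not an amount per cell. The members were selected on measured values. For each of the 75757 IDs a score was formed from its stage means of log2(TPM + 1): the lowest of the S4, S8 and S20 means minus the highest of the S10, S12, S14 and S16 means. The 100 IDs with the largest score were taken and are called members. Members are referred to by their rank in the score where their ID is not given.

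Per the labels, all libraries came from roots of wild type plants, with RNA from the middle of the root and 4 biological replicates per stage. The fibrous roots were S4 (1.5 mm in diameter) and S8 (2 mm), the pencil roots S10 (3.5 mm) and S12 (5 mm), and the storage roots S14 (10 mm), S16 (15 mm) and S20 (25 mm). S4, S8 and S20 are called the ends here, with 12 libraries, and S10 to S16 the middle, with 16. The labels do not give the cultivar, the plant age or the number of plants behind a library. A stage is a class of roots of 1 diameter, and different roots were sampled at each.

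Sweet potato storage roots develop from roots that are at first thin and absorb water and nutrients. During thickening, cambia produce storage parenchyma that fills with starch, while lignification of the central cylinder is held back. A pencil root is a thickened but still slender root, often lignified, and not every root becomes a storage root. RNA from a root section is a mixture of epidermis, cortex, xylem, phloem, cambium and parenchyma. Fewer cells of a type and less RNA per cell cannot be told apart in such samples.

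Of the 99697 IDs, 0 matched the table of 175826 sweet potato genes used here, so no member has a gene name, a known role or a sequence in this account. For the same reason the tissue label could not be checked against marker genes. Of the members, 87 carried a G and TU number and 13 (13%) the prefix MSTRG, against 24.6% with MSTRG among all IDs tested. The 87 had 84 distinct G numbers, and 3 pairs of members shared one. The sources used here do not say what G and TU numbers stand for.

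The score was positive for 1017 of the 75757 IDs (1.34%), so the members are the upper end of an infrequent profile. The mirror profile, with all middle means above all end means, was held by 7763 IDs (10.2%). That difference depended on the scaling between libraries. Median-of-ratios scaling gave 2957 and 3843 IDs, and quantile normalization 2521 and 5133. The median difference of all IDs between ends and middle was -0.17 as deposited, moved to 0.023 by the median-of-ratios and was -0.011 once quantiles were equalised, all on the log2(TPM + 1) scale. Under the rescalings 59 and 60 of the members were again among the first 100.

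Scores ran from 1.32 at rank 1 to 0.447 at rank 100, with a median of 0.578, and 7 members had a score of 1 or more. The edge of the list was not a gap. The member of rank 100 scored 0.4470, with stage means of log2(TPM + 1) between 2.51 and 2.74 in the middle and between 3.19 and 3.50 at the ends. The first ID left out scored 0.4467, with means between 1.74 and 2.19 in the middle and between 2.63 and 2.86 at the ends. Leaving out any 1 library kept between 75 and 97 of the 100 members, the fewest without S20 replicate 1.

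Member levels were modest. The mean TPM of a member over all libraries had a median of 4.05 (quartiles 2.10 and 8.06), close to the median of 3.29 for all IDs tested, and the most abundant member reached 113. Every member passed the low-value filter by the rule, but 18 of the 100 would not have passed on the middle libraries alone. In every library, 65 members were above 0 TPM. At the other extreme 3 members, MSTRG.4432, MSTRG.64041 and G45898_TU73998, were listed at 0 in all 16 middle libraries. They were also at 0 in 8, 8 and 6 of the 12 end libraries, and their highest values were 8.72, 8.37 and 4.2 TPM.

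**Figure D1:**
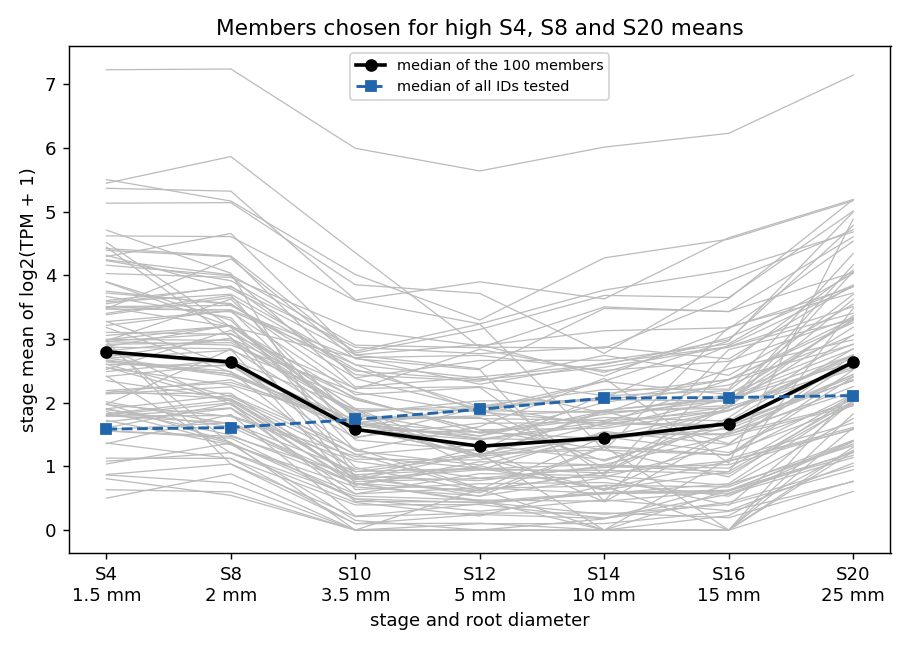
Stage means of log2(TPM + 1) for the 100 members (grey lines), their median (black) and the median of all 75757 IDs tested (blue, dashed), against stage and root diameter. In the deposited TPM the median member dips from 2.64 at S8 to 1.32 at S12 and returns to 2.64 at S20. The median of all IDs goes from 1.61 at S8 to 2.11 at S20.

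The profile itself is what the rule selected, and the following values describe it without a test. The median of the members' log2 means was 2.80 and 2.64 in the fibrous stages S4 and S8. It was 1.58 and 1.32 in the pencil stages S10 and S12, 1.45 and 1.67 in S14 and S16, and 2.64 in S20. Between S8 and S10 the median member differed by -1.10 on the log2 scale, and between S16 and S20 by 0.85. The same steps were 0.14 and -0.032 in the median of all IDs tested. Within the middle the level was near its lowest at S12, the lowest middle stage for 37 members, and S16 was the highest middle stage for 46. The median step from S14 to S16 was 0.17 among members and 0.030 among all IDs, so S16 stood slightly above the floor before the larger step to S20. Which end stage was highest varied, with S4 for 34 members, S8 for 31 and S20 for 35. S20 was the lowest of the ends for 45 members, and so set the score of more members than S4 (22) or S8 (33).

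Taken from the mean of the middle stages, the height of a member at S20 had a median of 91.4% of its height in fibrous roots (quartiles 77.0% and 121%). This range was wide, from 28.5% to 412%. These heights are those of the deposited TPM and depended on the scaling. As deposited, 40 of the 100 members had an S20 mean above their fibrous mean, with a median log2 difference of -0.095. Median-of-ratios scaling gave 14 members and a median of -0.49, and quantile normalization 17 and -0.45. Summed over the members, the level was 1194 ± 233 TPM in S4 and 1037 ± 108 in S8 (SD, n = 4 each, as for the other stages). It was 386 ± 65.5 in S10 and 335 ± 43.5 in S12, then 365 ± 64.7 in S14 and 484 ± 107 in S16, and 1230 ± 328 in S20. The lowest end library held 884 TPM and the highest middle library 611, so the sums did not overlap, a separation that the choice of members favours. The sum was a small part of the library, 0.119% of all TPM at S4, 0.0335% at S12 and 0.123% at S20.

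**Figure D2:**
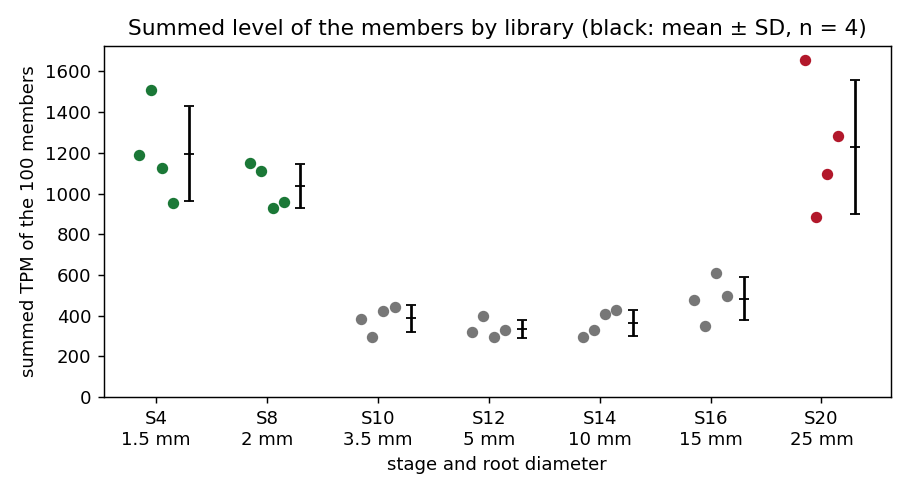
Summed TPM of the 100 members in each of 28 libraries by stage (points: green S4 and S8, grey S10 to S16, red S20), with the stage mean ± SD in black (n = 4). The 12 end libraries lie between 884 and 1656 TPM and the 16 middle libraries between 293 and 611 TPM.

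Measures of library composition are given next, and their relation to the profile was not tested. The share of TPM taken by the 1000 most abundant IDs was 34.7% at S12 and 35.2% at S14, with the other stages as follows. The 1000 most abundant IDs took 43.1% ± 5.13 of TPM at S4 and 43.0% ± 5.68 at S8, and 36.4% ± 4.25 at S20 (SD, n = 4 each), where S20 lay within the range of the middle stage means, from 32.5% at S16 to 36.99% at S10. IDs that reached 1 TPM numbered 50297 ± 2981 at S4 and 59267 ± 1146 at S20, and the middle stage means lay between them or just above, from 53396 at S10 to 59830 at S14.

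For most members the profile held in stage means and not in every library. All 12 end libraries lay above all 16 middle libraries for 3 members, G39976_TU65599, G6385_TU10532 and G10343_TU17047, named because they are few. Among all IDs tested 4 did so (0.00528%). The 8 fibrous libraries lay above the middle for 3 members (0.935% of all IDs), and the 4 S20 libraries for 14 (4.78% of all IDs). The rule favours such separation, and nothing is read from these counts.

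G39976_TU65599, rank 13, had 6.45, 11.4, 5.68 and 5.47 TPM at S4, 6.97, 7.97, 9.23 and 8.95 at S8, and 7.12, 4.70, 4.50 and 7.12 at S20. Its middle libraries ran from 0.52 TPM at S12 to 4.32 at S16, just under the lowest S20 library. G6385_TU10532, rank 25, had 7.14, 4.46, 2.49 and 4.19 TPM at S4, 4.33, 8.71, 4.10 and 4.22 at S8, and 4.06, 3.95, 3.14 and 4.0 at S20. A single S4 library of the latter, at 2.49 TPM, nearly touched its highest middle libraries, at 2.45 TPM in S14 and S16. G10343_TU17047, rank 53, had 6.03, 11.3, 4.93 and 6.12 TPM at S4, 5.74, 7.40, 7.54 and 5.53 at S8, and 10.9, 10.6, 5.95 and 8.60 at S20. Its highest middle library held 4.84 TPM at S14, and the lowest S4 library 4.93.

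The IDs with the largest scores were less even between replicates. By the rule for naming, the first 2 members whose S20 mean lay above the fibrous mean and the first 2 whose S20 mean lay below it are given in full, on the scale of log2(TPM + 1) means. G23886_TU39096, rank 1, had 40.4, 49.2, 8.32 and 9.09 TPM at S4, 23.1, 23.02, 15.1 and 14.8 at S8, and 187, 5.06, 8.16 and 98.4 at S20. Its middle libraries ran from 1.19 to 9.08 TPM. At S20, then, replicates 1 and 5 stood far above every fibrous library and replicates 2 and 3 within the range of the middle, and the S20 mean of 74.7 ± 86.6 TPM (SD, n = 4) describes neither pair.

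G42500_TU69313, rank 7, had 40.0, 36.0, 6.98 and 7.45 TPM at S4, 20.8, 18.0, 12.2 and 10.8 at S8, and 148, 5.09, 7.27 and 75.6 at S20. The middle libraries ran from 2.07 to 8.81 TPM. Its high and low libraries at S4 and S20 were those of G23886_TU39096, replicates 1 and 2 high at S4 and replicates 1 and 5 high at S20.

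G20999_TU34340, rank 2, had 8.03, 67.5, 20.6 and 19.6 TPM at S4, 8.79, 8.05, 11.1 and 5.44 at S8, and 15.2, 4.15, 5.97 and 7.51 at S20. In the middle it stayed at or under 2.99 TPM at S10, S12 and S14, but S16 replicates 1 and 2 held 9.60 and 6.77 TPM, within the range of the ends. G48933_TU78566, rank 3, had 6.95, 35.8, 10.4 and 13.6 TPM at S4, 13.4, 4.36, 18.5 and 3.70 at S8, and 21.9, 2.63, 5.62 and 11.5 at S20. It overlapped the middle, which ran from 0.28 to 6.26 TPM, in S8 replicates 3 and 5 and S20 replicates 2 and 3.

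**Figure D3:**
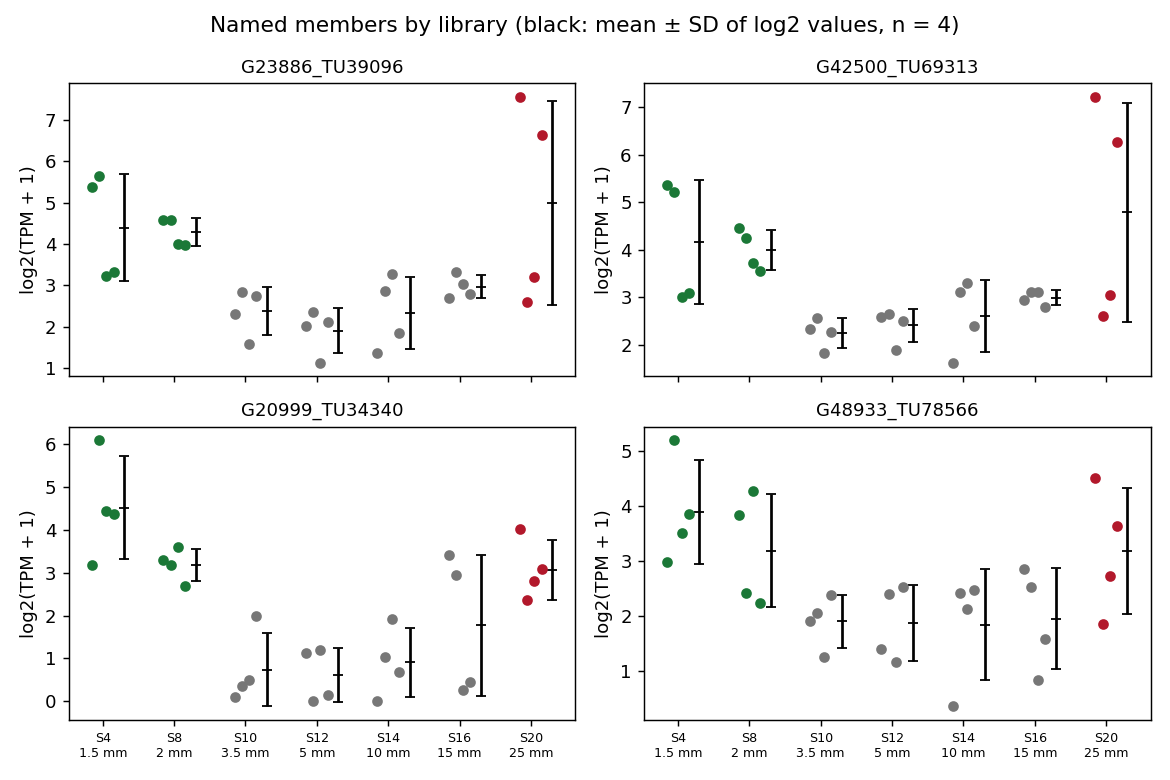
Log2(TPM + 1) of the 4 named members in each library by stage (points: green S4 and S8, grey S10 to S16, red S20), with the mean ± SD of the log2 values in black (n = 4). In the upper panels the S20 libraries split into replicates 1 and 5, at 75.6 TPM or more, and replicates 2 and 3, at 8.16 TPM or less.

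Whether S20 returned to the fibrous level was compared with limma over all IDs tested, with S20 set against the mean of S4 and S8. A call needed a Benjamini-Hochberg adjusted p under 0.05 and a log2 fold of at least 1 in size. Among members 2 were called higher and 1 lower at S20, where 27.6% of all IDs were called higher and 12.3% lower. The rule takes the lowest end mean, which favours members whose end stages are alike, so the low count is in part built in and nothing is read from the gap to all IDs. The median log2 difference was -0.095 among members, with 40 of 100 above 0, and 0.43 among all IDs. Median-of-ratios scaling gave 1 member higher and 6 lower, quantile normalization gave 1 and 5, while the median of all IDs moved to 0.105 and 0.098 and that of the members to -0.49 and -0.45. The shares of all IDs called under these scalings are not given here, so nothing is read from those counts. By the medians, the position of S20 relative to fibrous roots depended on the scaling.

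The 3 called members were named after their values were seen. G5584_TU9221, rank 52, rose at S20 to 16.7, 16.8, 13.4 and 16.1 TPM, from 4.21, 11.99, 3.46 and 4.27 at S4 and 4.58, 4.03, 6.50 and 3.75 at S8. Its log2 difference was 1.49 (SE 0.28, limma adjusted p = 8.7e-05), and every S20 library lay above every fibrous one. It kept this call under each alternative run, with adjusted p between 2.65e-06 and 0.00311.

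G40246_TU66023, rank 94, had 7.85, 8.44, 17.3 and 9.28 TPM at S20, against 11.4, 0, 0 and 5.10 at S4 and 0.70, 3.63, 0.38 and 4.46 at S8. The log2 difference was 1.97 (SE 0.78, limma adjusted p = 0.0328), and 1 S4 library, replicate 1, lay within the S20 range. Its call was lost with either rescaling, with a pseudocount of 0.1, and without any one of S4 replicates 2 and 4, S8 replicates 2 and 4, or S20 replicates 2, 3 and 5, and the adjusted p lay between 0.0111 and 0.0965 across all alternatives.

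MSTRG.26912, rank 78, was at 22.9, 12.3, 9.72 and 0.10 TPM at S4, 0, 5.95, 0 and 1.54 at S8, and 0, 0, 0 and 4.39 at S20. It fell by 1.39 in log2(TPM + 1), with an SE of 0.58 (limma adjusted p = 0.0433). Across all alternatives this p lay between 0.000871 and 0.698. In the middle this member did not exceed 0.35 TPM, so it passed the filter on end libraries alone, most of them fibrous. The SE pools the spread of all stages, with an SD of 9.39 TPM at S4 and 0 at S14 and S16. That SE thus understates the spread in the compared stages, and nothing is read from this call. The call was lost in 13 alternative runs. Among them were those with a pseudocount of 0.1 or 5, with library weights and with the replicate number as a block. It was also lost without any one of S4 replicates 1, 2 and 4, S8 replicates 3 and 5, or S20 replicates 1, 2 and 3.

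None of the 4 IDs named by score was called in this comparison as fitted, and 3 of them gained a call under some alternatives. G23886_TU39096 had a log2 difference of 0.65 (SE 0.66, limma adjusted p = 0.413) and G42500_TU69313 one of 0.71 (SE 0.61, limma adjusted p = 0.336). With library weights both were called higher, at 1.54 (limma adjusted p = 0.0281) and 1.55 (limma adjusted p = 0.0162). G42500_TU69313 was also called without S20 replicate 2, at 1.43 (limma adjusted p = 0.0453). The SE of these 2 IDs pools the spread of all stages and understates that between their split S20 libraries. Nothing is read from their calls. Without S20 replicate 1 both turned to the other direction, at -0.20 and -0.11. For G20999_TU34340 the value was -0.78 (SE 0.56, limma adjusted p = 0.237) and with median-of-ratios scaling it was called lower, at -1.27 (adjusted p = 0.0428). For G48933_TU78566 it was -0.36 (SE 0.53, limma adjusted p = 0.581), and 0.084 without S20 replicate 2.

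Within the fibrous roots no member was called between S8 and S4 (limma), and 5 of 100 had an unadjusted p under 0.05, as did 3034 of the 75757 IDs tested. Of all IDs tested 1 was called (0.00132%). Within the middle, no member was called between early storage roots (S14 and S16) and pencil roots (S10 and S12), and 10 had an unadjusted p under 0.05, against 30785 of the 75757 IDs tested. All IDs were called in 10.6% of cases there, but the rule takes the highest middle mean and so favours members with an even middle. The count became 2 without S10 replicate 2 and 1 without S16 replicate 3. The shares of all IDs called in these runs are not given here, so nothing is read from those counts. The median log2 difference was 0.085 among members and 0.18 among all IDs.

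Deviations of libraries from their own stage means leave out the means that chose the members, and were used to see which members moved together. They are not free of the choice. With 4 libraries per stage, a single high library lifts both a stage mean and its own deviation. The choice can thus favour IDs with a large spread, and gaps to all IDs below may be in part built in. The mean pairwise correlation of these deviations was 0.070 over 4950 pairs of members and 0.025 over all pairs of IDs tested (28 libraries). Pairs share their libraries, and the values are a description. The median SD of a member inside stages was 0.639 on the log2 scale, against 0.458 for all IDs. A first component held 22.5% of the deviation among members and 13.4% among all IDs. Members did not form 1 block, since pair correlations went down to -0.76, and 19 pairs exceeded 0.8.

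The mean deviation of the members was uneven between replicates at S4 and S20. At S4 the mean member stood 0.44 above its stage mean in replicate 2 (0.13 over all IDs) and 0.27 below it in replicate 1, a library that also stood apart over all IDs (mean deviation -0.17). At S20 the mean deviations were 0.30, -0.26, -0.27 and 0.23 in replicates 1, 2, 3 and 5, with 67, 31, 32 and 66 of the 100 members above their stage mean. The mean deviation of S14 replicate 2 was -0.25. Over all IDs tested those S20 libraries deviated by -0.053, -0.046, 0.081 and 0.018. The S20 split among members was thus larger than the deviation of all IDs in each of these libraries. The choice of members can favour such a split, and the cause of the split was not tested.

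**Figure D4:**
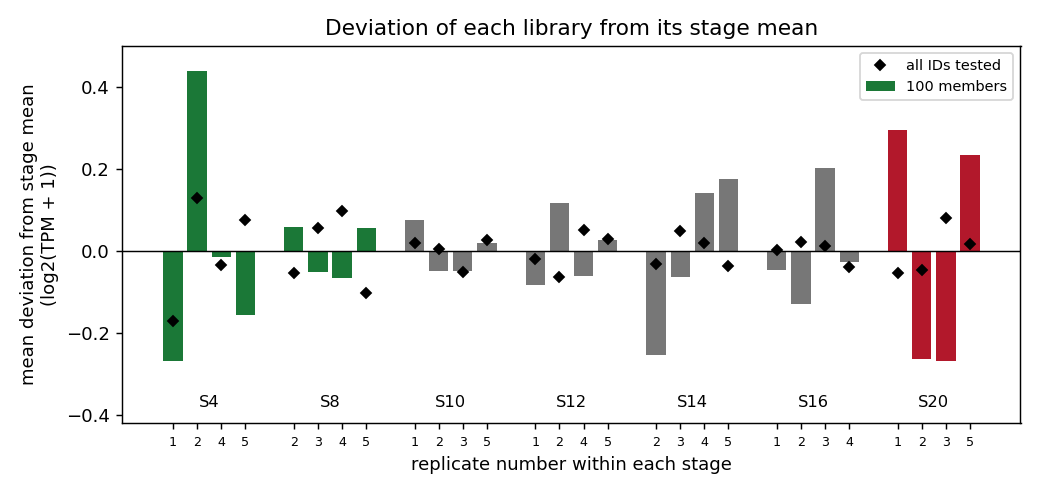
Mean deviation of the 100 members from their stage means in each library (bars: green S4 and S8, grey S10 to S16, red S20), with the mean deviation of all 75757 IDs tested as diamonds, in log2(TPM + 1). The longest bar is at S4 replicate 2 (0.44). In S20, replicates 1 and 5 are above 0 and replicates 2 and 3 below.

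A tight set of 4 members, picked for their correlations, showed the same split at S20. G23886_TU39096 and G42500_TU69313 had deviations correlated at 0.986 over 28 libraries, and at 0.959 over the 24 libraries outside S20. The members of ranks 23 and 59 belonged with them, and the 6 pairs among these 4 had correlations from 0.837 to 0.986, or from 0.458 to 0.959 outside S20. Rank 59 carries the same G number as G23886_TU39096. Its S20 libraries held 67.3, 2.31, 2.32 and 29.9 TPM, and those of rank 23 held 128, 2.85, 4.89 and 56.9. In all 4 members, S20 replicates 1 and 5 exceeded every other library of the series and replicates 2 and 3 did not exceed the middle range.

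Some further pairs with deviations in step had neighbouring ID numbers. Of the 100 members, 16 fell into 12 pairs whose numbers lay within 10 of each other. G20999_TU34340 and the member of rank 5, 3 numbers apart, had a correlation of 0.826, and rank 5 had 3.05, 72.6, 30.7 and 22.8 TPM at S4 with the same high S4 library. G48933_TU78566 and the members of ranks 29 and 70, 4 numbers apart and sharing a G number themselves, had correlations of 0.834 and 0.902. Closeness did not always go with likeness, as the 12 pairs ran from -0.36 to 0.902. The member of rank 56, 6 numbers from G48933_TU78566, had -0.22 with it, and -0.36 and -0.16 with ranks 29 and 70. Ranks 53 and 89, 6 numbers apart, had 0.091. Near-identical copies are common in a hexaploid, and reads cannot be assigned between them with certainty, so rows of 1 G number or near numbers may not be separate measurements.

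Rows that the rule did not choose gave a further view of the same profile. The members' G numbers held 50 other tested rows, on 37 G numbers, and these were compared between ends and middle with limma over all IDs. Of the 50, 6 were called higher at the ends (12%), where 1.83% of all IDs were, and 0 were called lower, where 3.84% were, with 27 higher and 2 lower at an unadjusted p under 0.05, against 8223 and 24823 of the 75757 IDs. The median log2 difference was 0.53 among these rows, with 39 of 50 above 0, and -0.17 among all IDs. A score above 0 was held by 13 of the 50 (26%), against 1.34% of all IDs.

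The 6 called rows belonged to the G numbers of the members of ranks 9, 18, 35, 48, 53 and 83, with log2 differences from 1.05 to 1.87. In 4 of the 6 the score was below 0, so a middle stage mean reached above an end stage mean although the average of the ends was higher. The count of higher calls was 17 under median-of-ratios and 16 under quantile normalization, against 3.52% and 2.81% of all IDs, with 1.99% and 2.4% lower. It was 3 with a pseudocount of 5. These rows share a G number with a member, and reads divided between them can make their values alike, a part that was not tested.

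**Figure D5:**
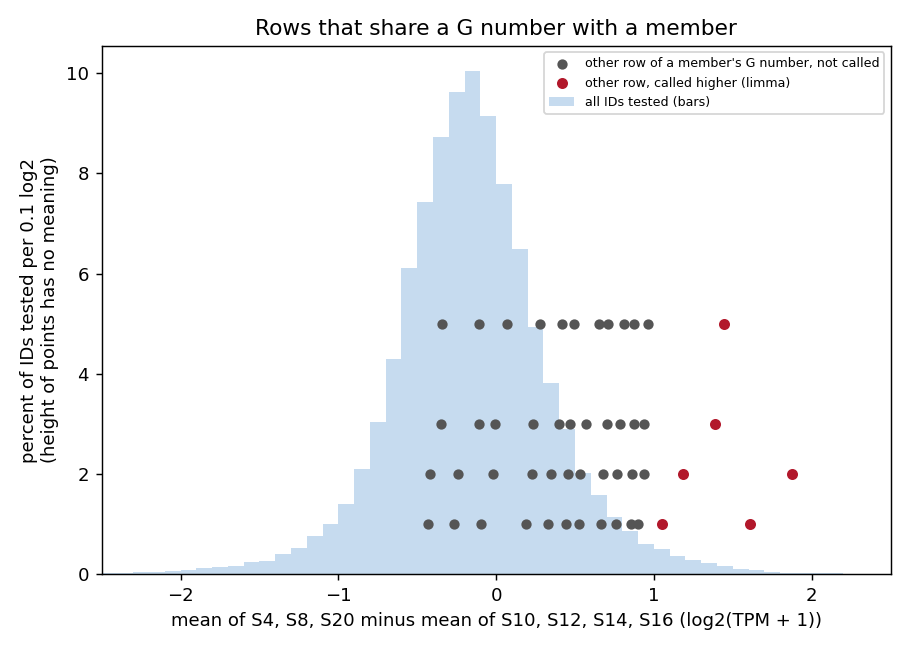
Difference between the mean of the end stages and the mean of the middle stages, in log2(TPM + 1), for the 50 tested rows that share a G number with a member (points, spread in height for legibility) and for all 75757 IDs (bars, percent per 0.1). The 6 called rows (red) lie between 1.05 and 1.87, and the median of the 50 is 0.53 against -0.17 for all IDs.

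The level summed over all rows of a G number includes the members' own TPM, which the rule selected on, so its score and the members' share in it are largely fixed by the selection and are given as a description. Of the members' G numbers 52 had more than 1 row in the table, and the summed level had a score above 0 for 38. Members held a median of 60.6% of the summed TPM at the ends and 55.8% in the middle, and their share was higher at the ends for 37 of the 52. The member of rank 10 was a minor row whose share was 13.3% at the ends and 1.44% in the middle, while the summed level of its G number was 263 TPM at the ends and 281 in the middle. That member was itself uneven, with 228, 26.6, 9.47 and 6.14 TPM at S4 and 0, 18.7, 9.31 and 3.36 at S20.

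Rows that were only near in number lay close to all IDs in the deposited TPM. Of 229 rows 1 number away from a member, 6 were called higher at the ends (2.62%) and 6 lower (2.62%), and 3 had a score above 0 (1.31%), against 1.83%, 3.84% and 1.34% of all IDs (limma). With median-of-ratios scaling 15 were called higher and 5 lower, against 3.52% and 1.99% of all IDs. Of 1911 rows from 1 to 10 numbers away, a window chosen after the data were seen, 2.35% were called higher and 31 (1.62%) had a score above 0.

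The most abundant member, of rank 11, had 111, 115, 231 and 167 TPM at S4, 148, 298, 139 and 82.8 at S8, and 44.6, 190, 379 and 121 at S20. Its middle libraries ran from 18.2 to 133 TPM and overlapped the ends. The S20 replicate with its lowest value was replicate 1, in which the tight set around G23886_TU39096 was highest. Members chosen for the same profile, at different levels, thus parted inside the stage.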

How the data were processed

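The authors deposited TPM values, 1 column per library and 28 in all. TopHat2 2.0.0 and RSEM 1.3.1 are named, per the submitters' processing notes, without their roles. No build or annotation is given in the sources used here. TPM keeps no depth, so precision was judged from the spread between 4 replicates per stage.

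IDs with 1 TPM or more in at least 4 libraries were kept, and log2(TPM + 1) was fitted to 7 stage means over 28 libraries with limma 3.58.1 in R 4.3.3 (trended prior). Fold changes are on that scale and understate changes of low IDs. Calls needed a Benjamini-Hochberg adjusted p under 0.05 over 75757 IDs and a log2 fold of at least 1. In simulated data with no change, each comparison gave 0 calls. Among changed IDs of moderate spread, a simulated log2 fold of 2 was recovered for 100% in S20 against fibrous and in ends against middle. In S8 against S4 it was recovered for 92.5%. A log2 fold of 1.5 was recovered for 76.1% in S20 against fibrous, 100% in ends against middle and 70.1% in S8 against S4. Members had a larger spread inside stages, with a median SD of 0.639 against 0.458 for all IDs. Recovery, and calls with no change, were not tested for members as a set. Plots used Matplotlib 3.10.9.

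The members, lists and tests were chosen with earlier results of these data known. Named IDs are the first 2 members by score with an S20 mean above the fibrous mean and the first 2 below. IDs in counts of 3 or fewer were added after their values were seen, as were members given by rank. Lists of pathway genes were not applied, since no ID had a name. Alternatives were other pseudocounts, filters, scalings, library weights, replicate blocks, no fold threshold, fits to the compared stages and removal of each library.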

Additional observations from a re-analysis of the deposited data

Results flagged for a closer look

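Among 138 groups of 4 libraries, from the members whose libraries are given and from the sum of all members, 24 held 1 library far from the other 3, where chance flags about 1 in 20. These IDs are low and skewed on the TPM scale, which makes such gaps more frequent. Members given by rank were added after their values were seen, some for how their libraries varied. The count of flags is thus in part selected, and nothing is read from its excess. All values below are TPM.

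S4 replicate 2 stood high for 3 members, with 11.4 for rank 13 (others 5.47 to 6.45), 22.8 for rank 23 (3.14 to 5.79) and 11.99 for rank 52 (3.46 to 4.27). S14 replicate 4 stood high for rank 5 with 4.78 (others 0.27 to 0.33) and for rank 25 with 2.45 (1.58 to 1.70). At S8, rank 5 had 14.8 in replicate 4 (others 4.97 to 6.45) and rank 25 had 8.71 in replicate 3 (4.10 to 4.33). At S10, G20999_TU34340 had 2.99 in replicate 5 (others 0.06 to 0.41). At S12, rank 5 had 0.72 in replicate 5 (others 0.46 to 0.49). At S16, rank 23 was low with 2.46 in replicate 4 (others 4.04 to 4.18). At S20, rank 25 was low with 3.14 in replicate 3 (others 3.95 to 4.06), and rank 94 was high with 17.3 in replicate 3 (7.85 to 9.28). The same library was high for rank 26 with 12.4 (others 1.49 to 2.31), rank 41 with 29.3 (11.4 to 13.6) and rank 56 with 15.6 (1.28 to 2.45). For rank 10, S4 replicate 1 held 228 (others 6.14 to 26.6).

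In 8 groups a single library held a value and the other 3 were listed at 0, where any value above 0 is flagged. These were rank 10 with 8.74 in S10 replicate 1, 35.1 in S12 replicate 2 and 2.41 in S14 replicate 2, rank 78 with 0.32 in S10 replicate 3, 0.35 in S12 replicate 4 and 4.39 in S20 replicate 5, and rank 94 with 7.65 in S12 replicate 5 and 15.4 in S14 replicate 5.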

How the results depend on the processing

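Of the 100 members, 57 were chosen again with a pseudocount of 0.1, 59 with median-of-ratios scaling, 60 with quantile normalization, 73 with a pseudocount of 5, 72 with a filter of 5 TPM, which 72 members pass, and 75 to 97 when 1 library was left out. The 3 calls between S20 and fibrous roots became 7 with median-of-ratios scaling, 6 with quantile normalization, 9 with library weights and 5 with no fold threshold, and 2 to 5 when 1 library was left out. The 0 calls between early storage and pencil roots became 3 with a pseudocount of 0.1, 1 with library weights, 7 with no fold threshold and 0 to 2 when 1 library was left out. The 0 calls between S8 and S4 stayed 0 under every alternative run. The 6 calls among other rows of the members' G numbers became 17 with a pseudocount of 0.1, 3 with a pseudocount of 5, 17 with median-of-ratios scaling, 16 with quantile normalization, 25 with no fold threshold and 5 to 9 when 1 library was left out. The 12 calls 1 number away pool higher and lower ones. They became 25, 8, 20, 17 and 78 under the same settings and 11 to 15 without 1 library. Between ends and middle, 33046 of the 75757 IDs tested had an unadjusted p under 0.05 as deposited (limma). The share of all IDs called is not given here for most of these settings, so nothing is read from the counts in this paragraph. The cause of these changes was not tested.

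Deviations of same-numbered libraries of different stages had a mean correlation near 0. By the number in the description it was 9.69e-05 (from -0.207 to 0.192, 66 pairs), against -5.06e-05 for other pairs. By the number in the title it was 0.00859 (from -0.207 to 0.331, 84 pairs), against -0.00289. By these numbers 6 and 9 of 28 libraries correlated best with their own number, and the count to expect by chance was not computed. Whether libraries of the same number shared a plant or batch cannot be told from these values. With the replicate number as a block, early storage against pencil roots gave 1 call in place of 0 and S20 against fibrous roots 3.

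For S20 against fibrous roots, the log2 fold of G23886_TU39096 was 1.54 with library weights and -0.20 to 1.45 when 1 library was left out. That of G42500_TU69313 was 1.55 with library weights and -0.11 to 1.43. G20999_TU34340 had -1.27 with median-of-ratios scaling and -1.10 to -0.52, and G48933_TU78566 -0.80 to 0.084. Calls were gained with library weights by the first 2 of these IDs, without S20 replicate 2 by G42500_TU69313 and with median-of-ratios scaling by G20999_TU34340. For the first 2 the SE understates the spread at S20, and nothing is read from their calls. G23886_TU39096 and G42500_TU69313 reversed without S20 replicate 1 and G48933_TU78566 without S20 replicate 2. Fits to the compared stages alone are the same as the main one for ends against middle. With depth unknown, values of 0 need not mean absence.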

Other observations

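A few further pairs of members had deviations from the stage means that followed each other closely, chosen here for that likeness and given as values. The members of ranks 26 and 56 correlated at 0.958 over 28 libraries. At S20 they held 1.49, 2.31, 12.4 and 2.19 TPM and 1.28, 2.45, 15.6 and 1.54 TPM, so both were highest in replicate 3, where the set around G23886_TU39096 was low. At S4 both were highest in replicate 1, with 7.26 and 12.3 TPM.

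The members of ranks 41 and 64 correlated at 0.929. They held 13.6, 11.98, 29.3 and 11.4 TPM and 12.7, 7.25, 33.5 and 10.0 TPM at S20, again highest in replicate 3. At S4 they were lowest in replicate 1, with 4.99 and 3.27 TPM, the reverse of the pair before.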
